A study of Mus musculus with 8 samples.

Results

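Glycogen is the branched glucose store of animal cells, and 9 genes of its synthesis and breakdown were followed in cultured B16F10 cells, a mouse melanoma line. The genes were taken by name from a table of 55414 mouse genes: the phosphoglucomutases *Pgm1* and *Pgm2*, the UDP-glucose pyrophosphorylase *Ugp2*, glycogenin (*Gyg*), the glycogen synthase *Gys1*, the branching enzyme *Gbe1*, the phosphorylases *Pygl* and *Pygb*, and *Ppp1r3c*, a targeting subunit of protein phosphatase 1. All 9 were found, and 8 of them passed the filter on low values (at least 1 TPM in at least 2 of 8 libraries), which left 13526 genes for testing. *Ppp1r3c* was listed at 0 in every library and was not tested. The 4 groups had 2 libraries each and were all kept for 24 h in their oxygen concentration. WT cells, the unmodified line, and CypD KO cells, in which *Ppif* was disrupted with CRISPR/Cas9, were kept at 21% oxygen. Control cells carried an empty pcDNA vector after stable transfection, CypD OE cells carried pcDNA with *Ppif*, and both were kept at 1% oxygen. The KO cells were selected as puromycin-resistant clones and the Control and OE cells as G418-resistant clones, and the number of clones behind each group was not given in the sources used here. *Ppif* encodes cyclophilin D (CypD), a mitochondrial regulator of the permeability transition pore. The study asked how loss or excess of CypD bears on the stability of hypoxia-inducible factor 1 alpha and on melanoma metastasis.

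In glycogen synthesis, phosphoglucomutase turns glucose 6-phosphate into glucose 1-phosphate, Ugp2 joins it to UTP to give UDP-glucose, glycogenin starts a chain on itself, glycogen synthase lengthens the chain, and the branching enzyme adds side branches. Glycogen phosphorylase removes glucose 1-phosphate from the chain ends again, which phosphoglucomutase returns to glycolysis. Several of these enzymes are known from other cells as targets of hypoxia-inducible factor 1 (HIF1), and glycogen accumulates in many cell types kept in low oxygen.

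In CypD KO cells 7 of the 8 tested genes were higher than in WT cells and none was lower (limma, adjusted p under 0.05), where 30.1% of all tested genes were higher and 18.4% lower. In the libraries labelled CypD OE 6 of the 8 were lower than in Control and none was higher, against 18.3% of all tested genes lower and 19.0% higher. In Control cells at 1% oxygen 6 of the 8 were higher than in WT cells at 21% oxygen and none was lower, where 12.1% of tested genes were higher and 12.1% lower. Oxygen, vector, selection and clone change together in that comparison and cannot be told apart. At 21% oxygen, clone and selection changed together with *Ppif* status between WT and CypD KO. At 1% oxygen, clone changed together with the vector insert between Control and CypD OE. These cannot be told apart either. Differences are in log2(TPM + 1), TPM being a gene's share of all transcripts, scaled to the same total in each library. On that scale the median difference of the 8 genes was 0.66 for CypD KO minus WT, -1.04 for OE minus Control and 0.85 for Control minus WT. The medians over all tested genes were 0.09, 0.002 and 0.01 in the same comparisons. WT entered several of these comparisons, and so did Control, so the comparisons were not independent. *Pygb* passed the threshold in none of them.

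The targeted gene was checked first. *Ppif* stood at 10.44 and 12.11 TPM in CypD KO against 50.68 and 49.99 TPM in WT, a fitted difference of -2.07 ± 0.07 (log2, SE, n = 2 per group; limma adjusted p = 3.8e-06). Its TPM was 50.29 and 49.28 where the label was CypD OE, against 44.59 and 42.25 in Control, a difference of 0.19 ± 0.07 that did not pass the threshold (limma adjusted p = 0.0794). It passed when CypD KO replicate 1 or 2 was left out of the shared spread (limma adjusted p = 0.0331 and 0.0337). The OE libraries are therefore named by their label. The paper reports that CypD overexpression in the stable cells was checked by western blot, which measures protein and not RNA. Between 17942 and 19692 genes were above 0 per library, most in CypD KO, and each sequenced fragment added 0.0815 to 0.0975 TPM to a gene with an effective length of 1000 bases. All 7 melanocyte markers were present, with a summed level of 12430 to 20980 TPM, while 3 of 3 keratinocyte markers were at 0 in every library and the fibroblast markers summed to at most 1.33 TPM. The 2 endothelial markers summed to 0.39 and 1.18 TPM in Control, 0.56 and 0.98 in CypD KO, 0.13 and 0.45 in WT and 0.03 and 0.21 in CypD OE. The 5 leukocyte markers summed to 22.28 and 23.4 TPM in CypD KO and to 1.15 to 4.81 TPM in the other groups. *Cd68* was the only leukocyte marker to reach 1 TPM in any library, and 2 of the 5 were at 0 throughout. In CypD KO *Cd68* alone was at 21.85 and 23.33 TPM, while *Ptprc* was at most 0.02 TPM in any library. Whether other cell types were present or had a part in the results was not tested. In bulk RNA fewer cells of a type and less RNA per cell cannot be told apart. No label says whether the 2 libraries of a group came from separate cultures, so p-values measure only the spread between these libraries, which may be technical.

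The letters upstream of the genes are shown because the groups differ in oxygen and in the members' levels. HIF1 binds a core written as ACGTG or GCGTG, and both were searched on both strands of the 250 bases before each RefSeq start site (build GRCm38.p6, sense strand of the gene, 5′ to 3′). Matches are in capitals, and CACGTG, which reads the same on both strands, counts as 2 matches. The windows of the genes with the widest and the narrowest spread of levels were chosen, and that of *Ppp1r3c* as the one silent gene.
Pgm1: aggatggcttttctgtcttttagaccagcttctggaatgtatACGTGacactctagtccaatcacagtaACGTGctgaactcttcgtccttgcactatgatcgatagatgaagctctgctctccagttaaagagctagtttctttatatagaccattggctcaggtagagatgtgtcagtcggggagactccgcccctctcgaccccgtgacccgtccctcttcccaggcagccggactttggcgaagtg
Ugp2: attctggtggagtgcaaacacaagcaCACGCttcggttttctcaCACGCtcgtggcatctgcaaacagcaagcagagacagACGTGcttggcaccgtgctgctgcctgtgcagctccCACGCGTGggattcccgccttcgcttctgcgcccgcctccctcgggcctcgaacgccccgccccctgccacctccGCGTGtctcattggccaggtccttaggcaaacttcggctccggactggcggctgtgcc
Gys1: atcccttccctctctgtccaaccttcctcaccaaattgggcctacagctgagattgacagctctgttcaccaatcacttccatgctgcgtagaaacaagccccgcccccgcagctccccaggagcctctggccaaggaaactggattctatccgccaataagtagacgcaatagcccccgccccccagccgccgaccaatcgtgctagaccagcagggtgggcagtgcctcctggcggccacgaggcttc
Pygl: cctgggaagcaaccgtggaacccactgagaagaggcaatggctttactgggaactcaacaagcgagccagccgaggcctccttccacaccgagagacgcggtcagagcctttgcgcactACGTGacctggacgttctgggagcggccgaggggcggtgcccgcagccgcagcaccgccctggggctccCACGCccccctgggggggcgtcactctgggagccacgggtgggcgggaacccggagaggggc
Pygb: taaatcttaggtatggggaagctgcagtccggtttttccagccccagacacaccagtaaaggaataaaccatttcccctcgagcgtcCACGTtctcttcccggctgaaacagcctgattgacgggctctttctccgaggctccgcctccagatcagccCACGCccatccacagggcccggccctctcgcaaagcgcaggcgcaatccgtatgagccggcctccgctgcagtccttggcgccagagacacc
Ppp1r3c: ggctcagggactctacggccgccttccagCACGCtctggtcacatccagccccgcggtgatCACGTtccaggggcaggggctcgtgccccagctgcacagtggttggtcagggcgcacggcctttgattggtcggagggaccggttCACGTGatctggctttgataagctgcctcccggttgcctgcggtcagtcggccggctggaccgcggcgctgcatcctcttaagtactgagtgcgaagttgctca
The windows lie at chr4:99929201-99929450 (plus strand, *Pgm1*), chr11:21371268-21371517 (minus, *Ugp2*), chr7:45434589-45434838 (plus, *Gys1*), chr12:70227684-70227933 (minus, *Pygl*), chr2:150786546-150786795 (plus, *Pygb*) and chr19:36736605-36736854 (minus, *Ppp1r3c*).

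All 9 genes had a window in the table, and *Ugp2* had a second window with no match. At least 1 match was found for 7 of the 9 genes, and ACGTG for 6. Among the 32851 windows of all genes 38.6% held a match, and among the 12233 windows of tested genes 56.4%, so a match in this window is common. ACGTG was in 16.6% of all windows and in 22.1% of those of tested genes, shares that are per window and not per gene. The *Pgm1* window held ACGTG at 208 and 181 bases before the start, and that of *Ugp2* held 6 matches, 1 of ACGTG and 5 of GCGTG. Those of *Gys1* and *Gbe1*, which differed between groups, held none. The *Pygl* and *Pygb* windows each held 1 ACGTG and 1 GCGTG, although the levels of the 2 genes did not run alike, and *Ppp1r3c*, at 0 in every library, held 4 matches. A match is a description of letters and not of a bound site.

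**Figure D1:**
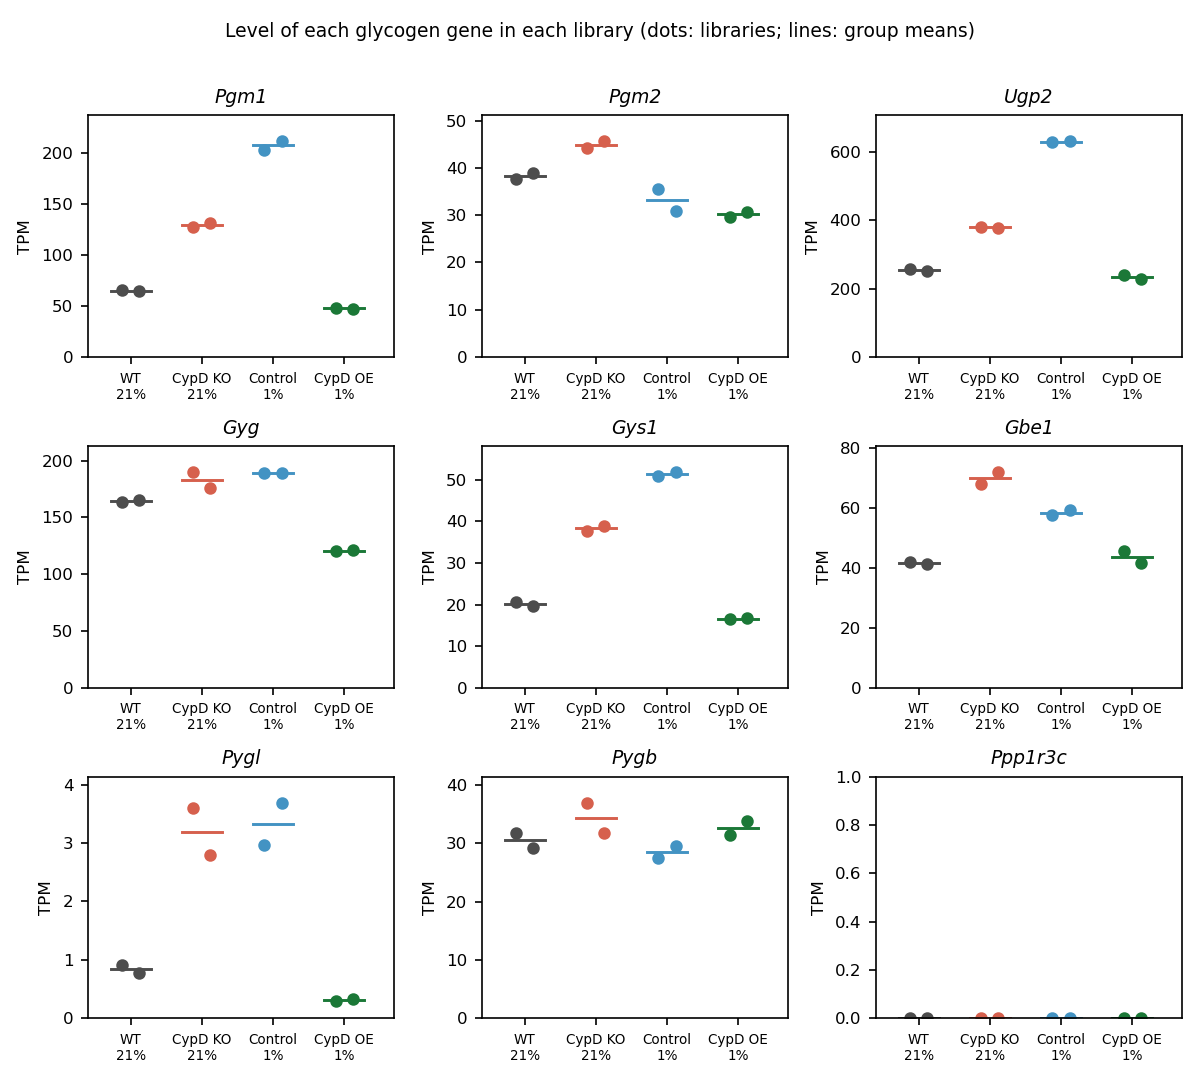
Expression of the 9 glycogen genes in TPM (vertical axes, linear, from 0) in each of the 8 libraries, by group and oxygen concentration, where dots are libraries and lines are group means. *Pgm1*, *Ugp2* and *Gys1* run from Control at the top through CypD KO and WT to CypD OE, while *Pygb* stays between 27.45 and 36.93 TPM.

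*Pgm1*, the major phosphoglucomutase, spanned the widest range of the 8 genes on the fitted scale (2.10 between its highest and lowest group means). It lies on chromosome 4 (GRCm39, chr4:99786394-99844492, plus strand) and carried the symbol Pgm2 in older mouse annotation. It was at 203.66 and 211.95 TPM in Control, at 127.97 and 131.26 in CypD KO, at 65.65 and 64.35 in WT and at 48.14 and 47.30 in CypD OE. No group overlapped another, and the libraries of a group lay much closer together than the groups did. In CypD KO it was 1.99 times the WT mean (log2 difference 0.98 ± 0.04, limma adjusted p = 5.1e-06). In CypD OE it was 0.230 of the Control mean (-2.10 ± 0.04, limma adjusted p = 4.6e-07), and below WT as well (-0.44 ± 0.04, limma adjusted p = 0.000477). Control exceeded WT by 1.66 ± 0.04 (limma adjusted p = 2.3e-06) and the difference of CypD KO from Control was -0.68 ± 0.04 (limma adjusted p = 2.6e-05). Each step in the order Control, CypD KO, WT, CypD OE thus passed the threshold.

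*Pgm2*, on chromosome 5 (GRCm39, chr5:64250272-64285817, plus strand), codes for a relative of *Pgm1* that acts mainly on pentose phosphates. Its levels did not follow those of *Pgm1*: it was at 35.63 and 30.79 TPM in Control, 29.63 and 30.70 in CypD OE, 37.77 and 39.02 in WT and 44.17 and 45.65 in CypD KO. Control, which had the most *Pgm1*, was thus among the lower groups, and CypD KO was highest. No groups overlapped, although the lower Control library nearly touched CypD OE. The CypD KO level was 1.35 times that of Control (0.43 ± 0.07, limma adjusted p = 0.00349) and 1.17 times that of WT (0.22 ± 0.07, limma adjusted p = 0.0445). The difference from WT fell to 0.11 and lost its call with median-of-ratios scaling (limma adjusted p = 0.299), which divides each library by the median ratio of its genes to their mean. It also lost its call without either CypD OE library, either WT library or either CypD KO library (0.20 to 0.24, adjusted p from 0.0636 to 0.164). CypD OE lay below WT (-0.34 ± 0.07, limma adjusted p = 0.016), a call lost without any one of these 4 libraries (adjusted p from 0.0542 to 0.0787). The OE to Control difference of -0.13 did not pass (95% interval -0.31 to 0.04, limma adjusted p = 0.212), but became -0.23 without Control replicate 2 (adjusted p = 0.0429). Control lay on the lower side of WT, unlike for *Pgm1*, by -0.21 ± 0.07, outside the threshold (95% interval -0.38 to -0.03, limma adjusted p = 0.087), and by -0.31 without Control replicate 1, inside it (adjusted p = 0.0301).

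*Pgm1* made up 85.11% and 87.32% of the summed TPM of the pair in Control, 74.34% and 74.20% in CypD KO, 63.48% and 62.25% in WT and 61.90% and 60.64% in CypD OE. The share was highest in Control and lowest in the libraries labelled CypD OE, with no overlap of groups. WT and CypD OE were close, the lower WT library being at 62.25% and the higher OE library at 61.90%. The sum of the pair rose from 77.77 TPM in the lowest library, of CypD OE, to 242.7 TPM in the highest, of Control.

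The 3 tested genes with profiles over the 8 libraries closest to that of *Pgm1* were found by Euclidean distance between log2(TPM + 1) values centred on each gene's mean. These were *Pgk1* (phosphoglycerate kinase, distance 0.184), *Ldha* (lactate dehydrogenase A, 0.216) and *Aldoa* (aldolase A, 0.301), all enzymes of glycolysis. The TPM of *Pgk1* was 3482.53 and 3695.27 in Control against 834.06 and 810.36 in CypD OE. The Pearson correlations with *Pgm1* were 0.998, 0.997 and 0.998 over the 8 libraries, which are 4 groups of 2 and share their culture conditions. These genes were picked for closeness over the same 8 libraries, so high correlations follow from the choice.

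*Ugp2*, on chromosome 11 (GRCm39, chr11:21270384-21321276, minus strand), had the highest level of the 9 genes. It was at 628.36 and 631.75 TPM in Control, 381.28 and 378.55 in CypD KO, 256.34 and 251.28 in WT and 238.73 and 227.62 in CypD OE. The order was that of *Pgm1*, and no groups overlapped. CypD KO stood at 1.50 times WT (0.58 ± 0.03, limma adjusted p = 1.9e-05), and CypD OE at 0.370 of Control (-1.43 ± 0.03, limma adjusted p = 8.8e-07). Control was 2.48 times WT (1.31 ± 0.03, limma adjusted p = 2.5e-06), and CypD KO minus Control was -0.73 ± 0.03 (limma adjusted p = 9.3e-06). The step from WT down to CypD OE was small (-0.12 ± 0.03, limma adjusted p = 0.0274). Its call was kept in 10 of 15 alternatives, with differences from -0.16 to -0.09. It was lost without CypD OE replicate 2 or either WT replicate, among others.

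*Gyg*, the primer of the chain (annotated as Gyg1 on chromosome 3, GRCm39, chr3:20158406-20209481, minus strand), moved less. It was at 188.90 and 189.58 TPM in Control, 190.08 and 176.38 in CypD KO, 163.84 and 165.47 in WT and 120.26 and 120.92 in CypD OE. Control and CypD KO overlapped, and CypD OE stood apart at the bottom, at 0.637 of Control (-0.65 ± 0.04, limma adjusted p = 6.1e-05) and 0.732 of WT (-0.45 ± 0.04, limma adjusted p = 0.00055). The differences from WT upward were small. CypD KO exceeded WT by 0.15 ± 0.04 (limma adjusted p = 0.0187), which became 0.04 with median-of-ratios scaling (limma adjusted p = 0.435). It also lost its call without either WT library or CypD KO replicate 1 (0.10 to 0.16), and kept it in 9 of 15 alternatives in all. Control exceeded WT by 0.20 ± 0.04 (limma adjusted p = 0.0136), a call lost without any one of these 4 libraries and kept in 10 of 15 alternatives. CypD KO and Control differed by -0.05 (95% interval -0.14 to 0.05, limma adjusted p = 0.384), a difference that passed with median-of-ratios scaling (-0.14, limma adjusted p = 0.0228).

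*Gys1*, the non-liver glycogen synthase, lies on chromosome 7 (GRCm39, chr7:45084175-45106058, plus strand). It was at 50.85 and 51.92 TPM in Control, 37.82 and 38.97 in CypD KO, 20.60 and 19.60 in WT and 16.60 and 16.65 in CypD OE. The 4 groups did not overlap and stood in the same order as for *Pgm1* and *Ugp2*. CypD KO was 1.91 times WT (0.90 ± 0.05, limma adjusted p = 2.7e-05) and CypD OE was 0.324 of Control (-1.57 ± 0.05, limma adjusted p = 3.9e-06). Control was 2.56 times WT (1.31 ± 0.05, limma adjusted p = 2.3e-05), and CypD KO minus Control was -0.41 ± 0.05 (limma adjusted p = 0.000925). CypD OE minus WT was -0.26 ± 0.05 (limma adjusted p = 0.012). It did not pass without either CypD OE replicate or without WT replicate 1 (-0.26 to -0.23). In a fit of the 4 libraries alone it did not pass either (limma adjusted p = 0.0668).

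*Gbe1*, on chromosome 16 (GRCm39, chr16:70110715-70366609, plus strand), had a different order. It was at 67.88 and 71.94 TPM in CypD KO, 57.47 and 59.23 in Control, 45.69 and 41.68 in CypD OE and 41.76 and 41.11 in WT. CypD KO was the highest group here, and CypD OE overlapped WT. CypD KO was 1.69 times WT (0.74 ± 0.06, limma adjusted p = 9.1e-05), and CypD OE was 0.749 of Control (-0.41 ± 0.06, limma adjusted p = 0.00193). Control was 1.41 times WT (0.48 ± 0.06, limma adjusted p = 0.00189). CypD KO exceeded Control by 0.26 ± 0.06 (limma adjusted p = 0.0111), a call lost without Control replicate 1 (adjusted p = 0.0583) or CypD KO replicate 2 (adjusted p = 0.068). CypD OE and WT differed by 0.07 (95% interval -0.06 to 0.21, limma adjusted p = 0.396).

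The 2 phosphorylases behaved unlike each other. *Pygl*, the liver form, on chromosome 12 (GRCm39, chr12:70237585-70278262, minus strand), was low throughout. It was at 2.96 and 3.69 TPM in Control, 3.60 and 2.79 in CypD KO, 0.92 and 0.78 in WT and 0.29 and 0.33 in CypD OE. Control and CypD KO overlapped at the top, and WT and CypD OE each stood apart below them. These levels correspond to approximately 9.27 and 10.8 fragments in the OE libraries, 27.3 and 21.4 in WT, 81.2 and 109 in Control and 112 and 81.0 in CypD KO, so that few fragments stand behind the OE values.

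*Pygl* in CypD KO was 3.76 times WT (1.18 ± 0.17, limma adjusted p = 0.00141), and in CypD OE 0.0932 of Control (-1.72 ± 0.17, limma adjusted p = 0.00041). Control was 3.91 times WT (1.22 ± 0.17, limma adjusted p = 0.0033). The log2(TPM + 1) scale understates changes at these levels: with a pseudocount of 0.1 the same differences were 1.79, -3.06 and 1.85. CypD OE minus WT was -0.50 and did not pass the threshold (95% interval -0.90 to -0.09, limma adjusted p = 0.0716), and passed with a pseudocount of 0.1 (-1.21, limma adjusted p = 0.0184). CypD KO and Control differed by -0.05 (95% interval -0.45 to 0.36, limma adjusted p = 0.857).

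*Pygb*, the brain form, on chromosome 2 (GRCm39, chr2:150628628-150673685, plus strand), was the more abundant phosphorylase. It was at 27.45 and 29.59 TPM in Control, 31.47 and 33.73 in CypD OE, 31.79 and 29.22 in WT and 36.93 and 31.78 in CypD KO. The libraries overlapped in 3 of the 5 comparisons, all but CypD OE with Control and CypD KO with Control, and its group means spanned 0.26 on the log2 scale. CypD KO and WT differed by 0.16 (95% interval -0.05 to 0.38, limma adjusted p = 0.173), and CypD OE and Control by 0.19 (95% interval -0.02 to 0.40, limma adjusted p = 0.145). The largest of its differences, CypD KO minus Control at 0.26, stood just outside the threshold (limma adjusted p = 0.0536). It came inside without CypD KO replicate 2 (0.36, adjusted p = 0.0272).

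*Pygl* was therefore 9.73% and 11.09% of the summed phosphorylase TPM in Control, 8.88% and 8.07% in CypD KO, 2.81% and 2.60% in WT and 0.913% and 0.969% in CypD OE. The groups did not overlap in this share. The sum itself stayed between 30.00 and 40.53 TPM, since *Pygb* made up most of it in every library. The muscle form *Pygm* was at most at 1.66 TPM, in 1 Control library, and was not tested.

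**Figure D2:**
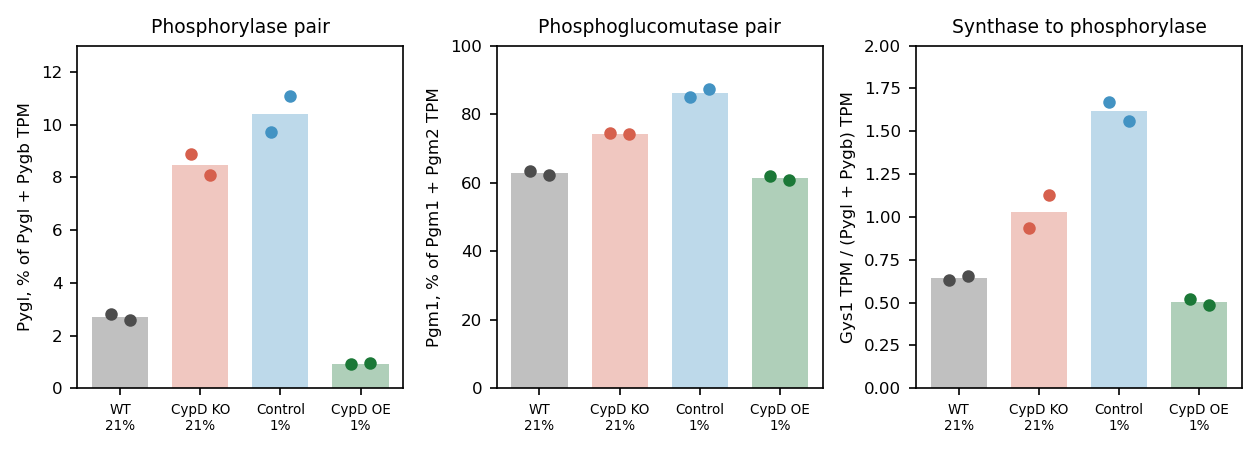
Share of *Pygl* in the summed TPM of *Pygl* and *Pygb*, share of *Pgm1* in that of *Pgm1* and *Pgm2* (percent) and ratio of *Gys1* to the summed phosphorylases, with 1 dot for each library and a bar for the group mean. All 3 are highest in Control and lowest in CypD OE, for *Pgm1* 85.11% and 87.32% against 61.90% and 60.64%.

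The synthesis genes were taken as *Pgm1*, *Pgm2*, *Ugp2*, *Gyg*, *Gys1* and *Gbe1*. Their summed TPM was 1165 and 1175 in Control, 849.2 and 842.8 in CypD KO, 586.0 and 580.8 in WT and 499.1 and 484.9 in CypD OE. *Ugp2* was the largest part of this sum in every library. The summed TPM of the phosphorylases ran from 30.00 to 40.53 without this order. Phosphoglucomutase also serves breakdown, so the 2 sums do not set synthesis against breakdown. The ratio of *Gys1* to the summed phosphorylases, which was chosen after its values were seen, was 1.67 and 1.56 in Control, 0.933 and 1.13 in CypD KO, 0.630 and 0.653 in WT and 0.523 and 0.489 in CypD OE. Transcript ratios do not measure enzyme activity, which in both enzymes depends on phosphorylation.

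*Ppp1r3c*, which brings protein phosphatase 1 to glycogen, lies on chromosome 19 (GRCm39, chr19:36708523-36714070, minus strand). It was listed at 0 in all 8 libraries, where 3 fragments would have given 0.0778 to 0.0928 TPM. That floor is a margin for counting error, and a true level under it could also be listed at 0. Of the other targeting subunits *Ppp1r3a*, *Ppp1r3d* and *Ppp1r3g* were also at 0 in all 8. *Ppp1r3b* was at 1.26 and 0.99 TPM in Control, 1.28 and 1.23 in CypD KO, 0.29 and 0.29 in WT and listed at 0 in both libraries labelled CypD OE. Its levels were thus high in the same 2 groups as those of *Pygl*. It reached 1 TPM in both CypD KO libraries and in 1 Control library, so that it entered the tests through CypD KO, where it was high, and its difference between CypD KO and WT is given as levels only. *Ppp1r3b* passed the threshold for Control minus WT (0.72 ± 0.17, limma adjusted p = 0.024) and for CypD OE minus Control, the latter with CypD OE at 0.

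**Figure D3:**
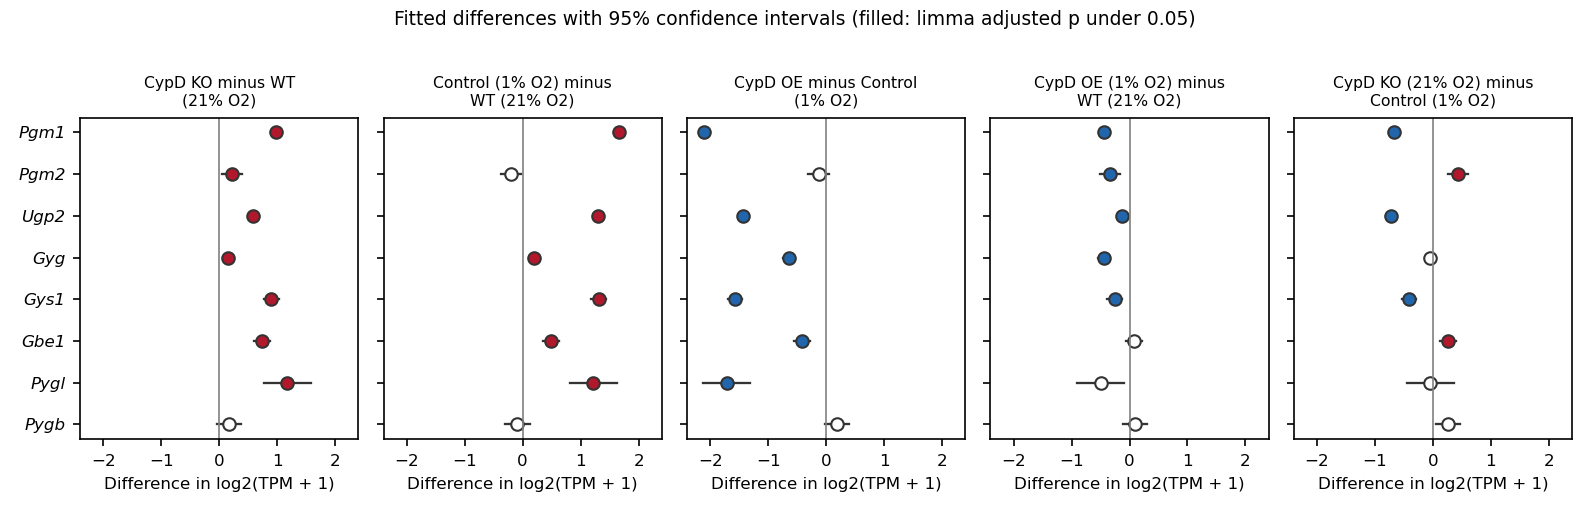
Fitted difference in log2(TPM + 1) (horizontal axes) for the 8 tested genes in 5 comparisons, with 95% confidence intervals, where filled points have a limma adjusted p under 0.05, red higher and blue lower. *Pgm1*, *Ugp2* and *Gys1* lie to the right of 0 for CypD KO minus WT and for Control minus WT and to the left for CypD OE minus Control, and *Pygb* is open in all 5.

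The remaining comparisons also cross the oxygen concentrations. Oxygen, vector, selection, clone and the labelled *Ppif* status change together in each and cannot be told apart. *Ppif* RNA was much lower in CypD KO than in Control (-1.86 ± 0.07, limma adjusted p = 6.7e-06). Between CypD OE and WT it hardly differed, with means of 49.78 and 50.34 TPM and overlapping libraries (-0.02 ± 0.07, limma adjusted p = 0.898). Between CypD OE at 1% oxygen and WT at 21% oxygen 5 of the 8 genes were lower and none was higher, against 13.7% of all tested genes lower and 14.0% higher, with a median of -0.30 beside 0.006 over all tested genes. The 5 were *Pgm1*, *Pgm2*, *Ugp2*, *Gyg* and *Gys1*, and 2 or 3 genes passed when a CypD OE or WT library was left out. Between CypD KO at 21% oxygen and Control at 1% oxygen 2 genes were higher (*Pgm2* and *Gbe1*) and 3 were lower (*Pgm1*, *Ugp2* and *Gys1*), against 27.4% of tested genes higher and 16.5% lower. The median of the 8 was -0.05, beside 0.07 over all tested genes. Scaling moved the background of the CypD KO comparisons: with median-of-ratios scaling 3204 genes were higher and 3481 lower than in WT, where the TPM as deposited gave 4066 and 2486. In that case 5 of the 8 members were higher in CypD KO than in WT, since *Gyg* and *Pgm2* lost their calls. Against Control the same scaling gave 2938 higher and 3042 lower in place of 3709 and 2236.

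Of 31 other genes of glycogen metabolism, 21 were tested. In CypD KO 10 were higher and 4 lower than in WT (median 0.31), beside 30.1% and 18.4% of all tested genes. The 10 include *Ppp1r3b*, which entered the tests only through its high level in CypD KO. In CypD OE 4 were higher and 9 lower than in Control (median -0.16), beside 19.0% and 18.3%. *Epm2a*, the glycogen phosphatase laforin, was at 4.48 and 4.44 TPM in CypD KO, 0.55 and 0.79 in WT, 4.82 and 4.84 in Control and 1.13 and 1.38 in CypD OE. It was high in CypD KO and Control, as *Pygl* was, and the differences were 1.71 ± 0.14 for CypD KO minus WT (limma adjusted p = 0.000107) and -1.37 ± 0.14 for CypD OE minus Control (limma adjusted p = 0.000463). *Slc37a4*, the glucose 6-phosphate transporter, was lower in CypD OE than in Control (-0.95 ± 0.15) and higher in Control than in WT (1.04 ± 0.15).

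*Pgm2l1*, which makes glucose 1,6-bisphosphate, the cofactor of phosphoglucomutase, had another order. It was at 4.61 and 4.82 TPM in CypD KO, 3.81 and 4.54 in CypD OE, 1.44 and 1.53 in Control and 0.91 and 1.61 in WT. It was high in CypD KO and in the libraries labelled CypD OE and low in the other groups. The differences were 1.36 ± 0.18 for CypD KO minus WT (limma adjusted p = 0.00092) and 1.06 ± 0.18 for CypD OE minus Control (limma adjusted p = 0.00414), so it rose in the comparison in which *Pgm1* fell. The genes that fell in CypD KO against WT included the phosphatase 1 catalytic subunits *Ppp1cc* (-0.28) and *Ppp1ca* (-0.20) and the calmodulin gene *Calm3* (-0.26), whose product is a subunit of phosphorylase kinase. Among those higher in CypD OE than in Control were the phosphorylase kinase subunit *Phka2* (0.32) and *Calm2* (0.23).

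In Control against WT 8 of the 21 were higher and none was lower (median 0.15), beside 12.1% in each direction over all tested genes, and 4, 4 and 3 genes passed without Control replicate 1, Control replicate 2 and WT replicate 1. In CypD OE against WT, where 14.0% of tested genes were higher and 13.7% lower, 5 were higher, led after *Pgm2l1* (1.21) by the glucose 6-phosphatase *G6pc3* (0.40) and the lysosomal glucosidase *Gaa* (0.29), and 1 was lower, 3 genes passing in all without CypD OE replicate 2. In CypD KO against Control, where 27.4% were higher and 16.5% lower, 4 were higher, among them *Pgm2l1* (1.20), *Phka1* (0.75) and *G6pc3* (0.33), and 4 were lower, among them *Calm3* (-0.64), *Ppp1cb* (-0.45) and *Ppp1cc* (-0.35). Of the 10 genes not tested, *Gys2*, the liver synthase, and *Pgm5* were at 0 in every library.

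All 15 genes that make or use UDP-glucose and hexose phosphates outside glycogen were tested. Calls in this list were not far from the background in CypD KO, where 6 were higher and 2 lower than in WT beside 30.1% and 18.4% of all tested genes. The hexokinases *Hk1* (1.37 ± 0.04) and *Hk2* (1.35 ± 0.04) and the glucose 6-phosphate isomerase *Gpi1* (0.58 ± 0.03) rose most. The 2 that fell were the glycoprotein glucosyltransferases *Uggt2* (-0.37) and *Uggt1* (-0.15). In CypD OE 3 were higher and 8 lower than in Control, beside 19.0% and 18.3% of all tested genes, led by *Hk2* (-1.69), *Gpi1* (-1.19) and the galactokinase *Galk1* (-0.89). The 3 that rose were *G6pdx*, the entry enzyme of the pentose phosphate pathway (0.74), the galactose enzyme *Galt* (0.45) and the glucosylceramide synthase *Ugcg* (0.39).

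The hexokinases, which make the glucose 6-phosphate that enters both glycogen and glycolysis, differed from each other. *Hk2* was at 142.89 and 143.18 TPM in Control, 104.81 and 104.23 in CypD KO, 43.37 and 44.14 in CypD OE and 38.96 and 41.82 in WT. *Hk1* was at 160.14 and 161.38 TPM in CypD KO, 85.75 and 86.09 in CypD OE, 80.89 and 80.80 in Control and 62.82 and 60.40 in WT. *Hk2* was thus highest in Control and fell in CypD OE, whereas *Hk1* was highest in CypD KO and differed by 0.09 ± 0.04 between CypD OE and Control, outside the threshold (limma adjusted p = 0.0984).

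In Control against WT 9 of the 15 were higher and 2 lower, beside 12.1% each way over all tested genes, with *Hk2* at 1.80, *Gpi1* at 1.08 and *Galk1* at 0.65, and with *G6pdx* at -0.59 and *Galt* at -0.52, and 7 passed in all without Control replicate 2 or WT replicate 2. In CypD OE against WT, beside 14.0% higher and 13.7% lower, 2 were higher, *Hk1* (0.47) and the UDP-glucose dehydrogenase *Ugdh* (0.27), and 3 lower, *Uap1* (-0.24), *Galk1* (-0.24) and *Gpi1* (-0.12), 2 passing in all without any one of these 4 libraries. In CypD KO against Control, beside 27.4% higher and 16.5% lower, 6 were higher, led by *Hk1* (0.98), *Galt* (0.68) and *G6pdx* (0.48), and 6 were lower, led by *Uggt2* (-0.66), *Galk1* (-0.60) and *Gpi1* (-0.50).

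**Figure D4:**
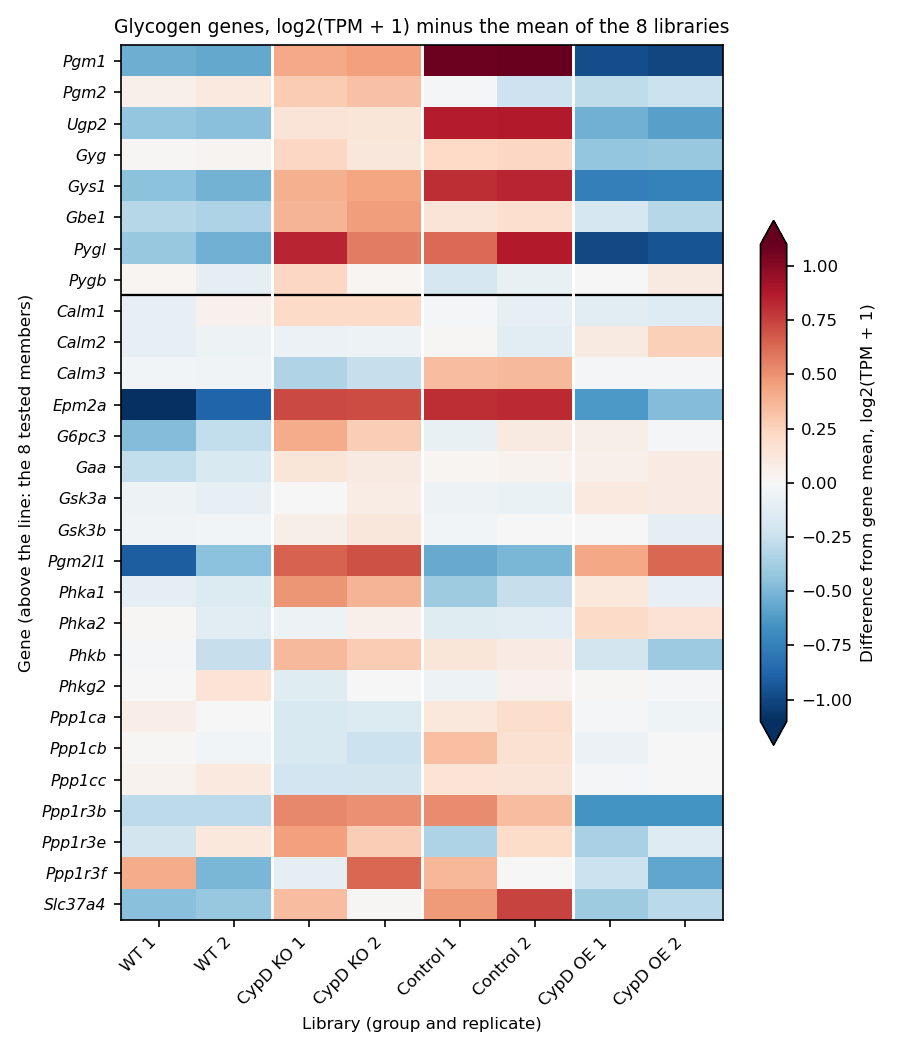
Heatmap of the 8 tested members (above the black line) and other tested glycogen genes, with libraries in columns and colour giving log2(TPM + 1) minus the gene's mean over the 8 libraries. *Epm2a*, *Ppp1r3b* and *Pygl* are red in CypD KO and Control and blue in WT and CypD OE, and *Pgm2l1* is red in CypD KO and CypD OE.

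Of the 9 genes, *Gys1*, *Pgm1*, *Ugp2* and *Gyg* overlap a protein-coding gene on the opposite strand, and whether the counting used strand was not given in the sources used here, so reads in the overlaps cannot be told apart. *Ruvbl2*, opposite *Gys1*, was at 60.10 to 87.28 TPM and lowest in CypD KO. *Itgb3bp*, opposite *Pgm1*, was at 20.84 to 41.55 TPM, *Vps54*, opposite *Ugp2*, at 36.77 to 59.20 TPM, and *Hltf*, opposite *Gyg*, at 26.33 to 42.51 TPM. *Itgb3bp* was highest in Control (41.55 and 39.44 TPM), as *Pgm1* was, and lowest in CypD KO (21.65 and 20.84). *Ruvbl2* was at 79.48 and 85.00 TPM in Control and 69.16 and 76.12 in CypD OE, in the same direction as *Gys1*. It was at 83.64 and 87.28 TPM in WT and 60.10 and 61.14 in CypD KO, in the opposite direction to *Gys1*. *Vps54* was highest in CypD OE (55.46 and 59.20), where *Ugp2* was lowest. The part of these genes in the values of *Gys1*, *Pgm1* and *Ugp2* was not tested. *Hltf* was highest in CypD KO, at 42.51 and 42.42 TPM against 28.97 and 27.11 TPM in WT, and its part in the small *Gyg* difference was not tested.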

How the data were processed

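RNA-seq values of 8 libraries from B16F10 cells were used, 2 for each of 4 groups taken from the sample labels. The library whose name has no suffix was taken as replicate 1, and 0 columns could not be assigned. Total RNA was depleted of ribosomal RNA. Per the submitters' processing notes and methods, reads were trimmed with Cutadapt 3.4, aligned to Ensembl GRCm39 with STAR 2.7.8a and summarised with RSEM 1.3.1. The authors deposited TPM, written to 2 decimals, for 55414 genes. For their own tests they used read counts with DESeq2 1.26.0, which were not used here. TPM is relative to all other genes of a library, and RSEM shares reads between genes that resemble each other.

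The 13526 genes that reached 1 TPM in 2 or more libraries entered limma 3.58.1 (R 4.3.3) as log2(TPM + 1), with 1 mean per group over all 8 libraries, eBayes with a trend, two-sided tests, Benjamini-Hochberg adjustment over all genes tested and a threshold of 0.05. With 2 libraries against 2, exact permutation cannot go below p = 0.333 and was not used. Depth was read from the steps between low TPM values, of which 83.7% to 86.4% came within 0.15 fragments of a whole count (30% for evenly spread values). Fragment length and step were chosen on these same values to bring them close to whole counts, so that share is not an independent check. Floors of 3 fragments cover counting error only. Gene positions are from GENCODE M39 (GRCm39), in which 98.8% of the identifiers were found, and promoter windows from RefSeq (GRCm38.p6), matched by symbol.

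The members and the lists of other genes were chosen with earlier results of these data known. All members and *Ppif* are named, up to 3 genes of each other list per direction and comparison (largest differences past the threshold without overlap of libraries), and the 3 nearest profiles of a member spanning at least 2 on the log2 scale. The values of 1 gene of the other lists are not reported here, though it stays in the counts. In addition, *Hk1*, *Hk2* and *Pgm2l1* are given in further comparisons, and *Pygm*, *Gys2*, *Pgm5*, *Ppp1r3a*, *Ppp1r3d* and *Ppp1r3g*, which were not tested, and genes overlapping members were named after their values were seen. Alternatives were a pseudocount of 0.1, no filter, a filter of 5 TPM, median-of-ratios scaling, the 4 libraries of a comparison alone, a replicate block, eBayes without trend and leaving out each library.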

Additional observations from a re-analysis of the deposited data

How the results depend on the processing

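Counts of members past the threshold stayed within 1.5 times of those reported under every alternative run, except in CypD OE minus WT, where 5 became 3 in a fit of the 4 libraries alone and 2 to 5 when single libraries were left out. Of the other glycogen genes, the 8 called in Control minus WT became 5 without a filter on low TPM, 3 in the 4 libraries alone, 5 without the trend and 3 to 7 with a library left out, and the 6 called in CypD OE minus WT became 3 to 6 with a library left out. Of the UDP-glucose and hexose phosphate genes, the 11 called in Control minus WT became 7 in the 4 libraries alone and 7 to 11 with a library left out, and the 5 called in CypD OE minus WT became 3 without the trend and 2 to 6 with a library left out. *Ppif* in CypD OE minus Control ranged from 0.16 to 0.23 with a library left out and passed the threshold without CypD KO replicate 1 or 2 (0.19). Over all genes, Control minus WT gave 1634 higher and 1635 lower, but 998 and 983 in the 4 libraries alone. Among single genes, CypD KO minus Control turned in direction without CypD KO replicate 2 for *Gyg* (0.0064) and *Pygl* (0.0941), and without Control replicate 2 for *Pygl* (0.0764), none of them called; with single libraries left out this difference ran from -0.10 to 0.0064 for *Gyg* and from -0.19 to 0.0941 for *Pygl*. The causes were not tested.

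No label says that replicate numbers pair the samples, and same-numbered libraries deviated together with correlations of -0.03 to 0.108. Such correlations cannot tell whether libraries were prepared in pairs. With the replicate number as a block, 6, 6, 6, 5 and 5 members passed for CypD KO against WT, CypD OE against Control, Control against WT, CypD OE against WT and CypD KO against Control. The *Pgm2* difference of 0.22 between CypD KO and WT was not called under the block (limma adjusted p = 0.0675), as it was not under 10 of 15 alternatives in all. *Pygl* rests on few fragments in CypD OE and WT, and *Ppp1r3b* was listed at 0 in CypD OE and at 0.29 TPM in both WT libraries. The size of their differences from these groups is limited by depth.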
